A study of Mus musculus with 9 samples.

Results

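Accessible chromatin at 10 genes that mark the cells around lung vessels was followed in endothelial cells sorted from mouse lung: Pdgfra, Pdgfrb, Notch3, Cspg4, Rgs5, Des, Acta2, Myh11, Tagln and Tcf21. They were chosen by name as markers of pericytes, smooth muscle cells and fibroblasts, and are 10 of the 21883 protein-coding genes of the table used. A peak, a stretch of DNA called open, belonged to a gene when its centre lay in the gene body, or otherwise when that gene's end was the nearest within 100 kb. All 10 genes had peaks, and their 90 regions are part of 126907 in the whole data set. The assay was ATAC-seq, in which a transposase inserts adapters into DNA that nucleosomes leave exposed. The 9 libraries were 3 from infant, 3 from young adult and 3 from mature adult mice. The labels call every sample lung endothelial cells, and give no age in days, strain, sex, treatment or sorting marker.

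Pericytes wrap capillaries and share their basement membrane, smooth muscle cells coat larger vessels and airways, and fibroblasts lay down matrix. Endothelial PDGF-B recruits mural cells through the receptor that Pdgfrb encodes, and endothelial Notch ligands act on Notch3 in the mural cell. Contractile genes such as Acta2, Myh11, Tagln and Des are driven in smooth muscle by serum response factor, which binds CArG boxes, and its partner myocardin.

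The peak lists differed in length between ages. They held 88856 to 94646 peaks in infant, 67550 to 68366 in young adult and 59793 to 64208 in mature adult libraries, and 90.5% to 93.6% of a library's peaks were given to a gene. Sequencing depth is unknown here, so a gene's peaks were compared both after scaling to the mean library total and as plain numbers. Scaling alone moved the median change of all genes: on the log2 scale it was 0.13 in young adult and 0.14 in mature adult against infant libraries after scaling, and -0.25 and -0.31 without it. Young adult replicate 3 had a mean peak width of 487 bp and mature adult replicate 1 of 495 bp, below the 530 to 541 bp of the other adult libraries. Whether the 3 libraries of an age represent 3 animals is not in the labels, so the p-values rest on the spread between libraries, which may be technical. In such bulk samples, fewer cells of a type in the sort and fewer open regions per cell cannot be told apart.

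The 10 genes together carried about as many peaks in young adult as in mature adult libraries and more in infant ones. Their peaks numbered 73, 68 and 68 in infant, 35, 36 and 34 in young adult and 37, 37 and 34 in mature adult libraries. As a share of a library's assigned peaks this was 0.0824% to 0.0841% in infant, 0.0551% to 0.0563% in young adult and 0.0580% to 0.0683% in mature adult libraries. The infant values did not overlap with the adult values on either scale. All 3 infant libraries had more peaks than any of the 6 adult libraries at 6 of the 10 genes, Pdgfra, Pdgfrb, Notch3, Cspg4, Des and Tcf21, where the share over all tested genes was 24.8%. No member had fewer peaks in all infant than in all adult libraries, against 0.844% of the genes tested.

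**Figure D1:**
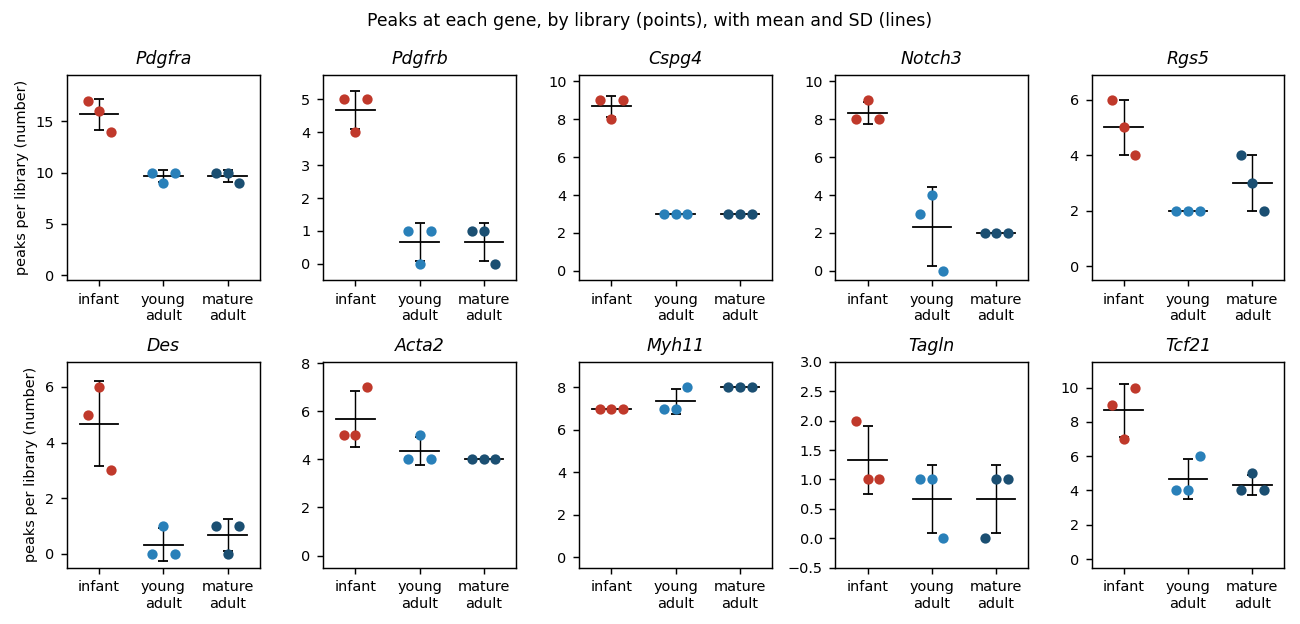
Number of peaks given to each of the 10 genes (y axis, peaks per library) in infant, young adult and mature adult libraries. Points are libraries and lines are the mean and SD of 3 libraries. At Cspg4 the infant libraries lie at 8 or 9 peaks and all adult libraries at 3, while at Myh11 every library lies at 7 or 8.

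Of the 10 genes, 9 had a mean of at least 1 peak and were tested across all 14451 such genes with limma, on log2(peak number + 0.5). Tagln fell under that minimum. Pdgfrb and Des passed it only through their infant peaks, so the counts that follow are a description and support nothing about the group. After scaling, 5 of the 9 were lower in young adult than in infant libraries (9.35% of all genes) and 1 was higher (25.7%). In mature adult libraries 3 were lower (13.8% of all genes) and 1 was higher (30.1%). On plain numbers 6 were lower and 0 higher in young adult libraries (17.5% and 1.13% of all genes), and 5 lower and 1 higher in mature adult libraries (29.3% and 1.43%). The median change of the 9 was -0.75 and -0.41 after scaling and -1.12 and -0.92 without it, in young adult and mature adult libraries in turn. Between the adult ages none of the 9 passed limma's threshold on either scale, where 0.699% of all genes were lower and 0.145% higher after scaling, and 0.823% and 0.104% on plain numbers. At an unadjusted p under 0.05, 2 of the 9 differed between the adult ages after scaling and 1 on plain numbers, as did 1391 and 1551 of all 14451 genes.

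These counts depended on single libraries and on narrow peaks. The 5 genes lower in young adult libraries became 1 without infant replicate 1 or without infant replicate 2, and 2 without young adult replicate 1, young adult replicate 2 or mature adult replicate 2. The 3 genes lower in mature adult libraries became 1 without any of the 3 infant replicates or without mature adult replicate 3. When the 59793 widest peaks were taken from every library, none of the tested members was lower in number at either adult age.

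**Figure D2:**
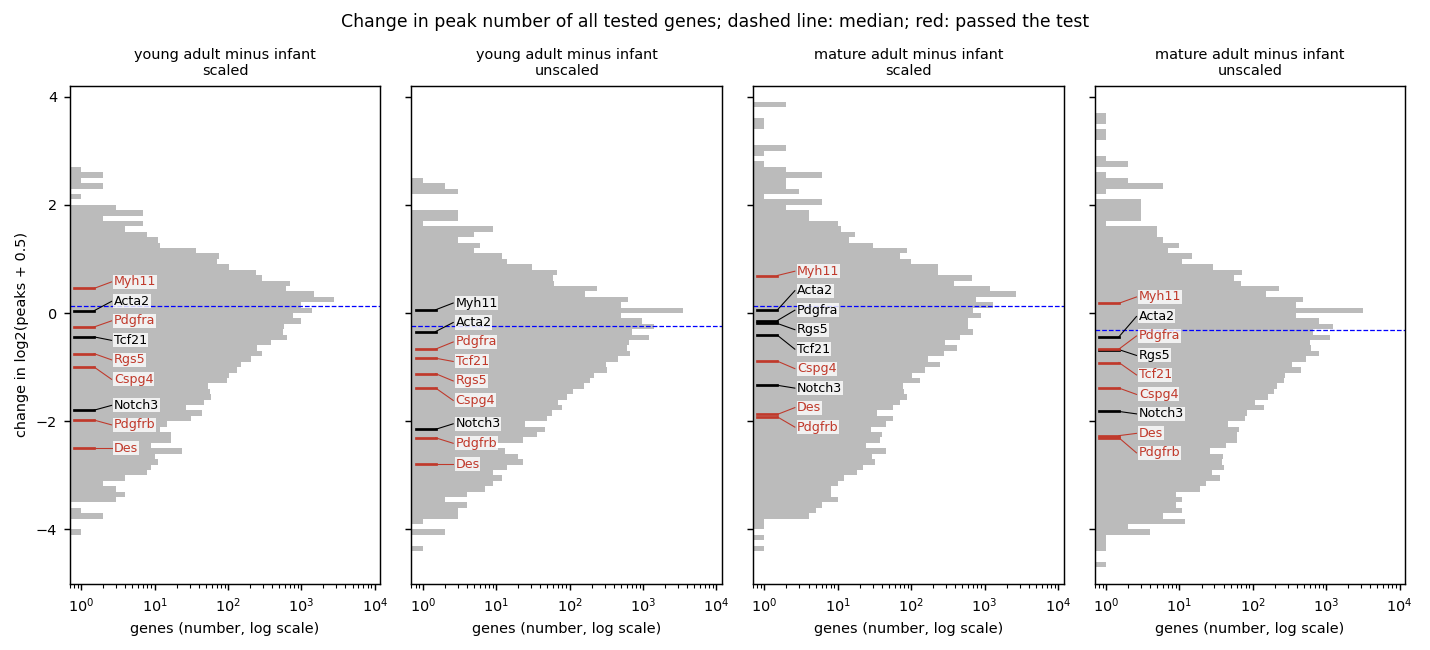
Change in log2(peaks + 0.5) against infant libraries (y axis) over all 14451 genes tested (grey; x axis, number of genes, log scale), with the 9 tested members marked. The dashed line is the median of all genes, which lies above 0 after scaling and below 0 on plain numbers, and red names passed limma's threshold. Pdgfrb, Cspg4 and Des were red and below the median in all 4 panels.

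Covered length is the sum of a gene's peak widths. All infant libraries exceeded all adult libraries in covered length at 8 of the 10 genes, the exceptions being Rgs5 and Myh11, against 54.0% of the genes tested. Tagln is among the 8 but was not tested, and some adult peaks of its region were counted for the neighbouring gene Sidt2. After scaling, Pdgfrb, Notch3, Cspg4 and Des were lower by limma at both adult ages (4 of 9, against 12.9% of all genes in young adult and 19.2% in mature adult libraries). Myh11 was higher at both (26.1% and 34.1% of all genes). On plain lengths 8 of the 9 were lower and 0 higher at both adult ages, where 40.1% and 56.3% of all genes were lower and 0.941% and 1.18% higher. Between the adult ages none of the 9 differed in covered length by the test, where 0.740% of all genes were lower and 0.138% higher after scaling, and 0.650% and 0.00% on plain lengths.

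The receptors come first. Pdgfrb, the receptor for endothelial PDGF-B and the usual pericyte marker, lies on chr18:61045127-61085067. It had 5, 4 and 5 peaks in infant libraries, 1, 0 and 1 in young adult and 1, 1 and 0 in mature adult libraries. Its peaks covered 2106, 1157 and 1889 bp in infant, 164, 0 and 232 bp in young adult and 150, 164 and 0 bp in mature adult libraries. No adult library reached the lowest infant library on either measure. The covered length differed by -2.03 (SE 0.351) on the log2 scale in young adult and by -2.09 in mature adult libraries after scaling, with limma adjusted p-values of 0.00368 and 0.00173. Pdgfrb reached the minimum of 1 peak only through its infant libraries, so it had to be higher there and these p-values are a description. The lower peak number (limma adjusted p = 0.0390 and 0.0368) was lost without any 1 of the infant libraries. It was also lost without young adult replicate 2 or mature adult replicate 2 in young adult libraries, and without mature adult replicate 3 in mature adult libraries. With young adult replicate 3 and mature adult replicate 1 both left out, the young adult call was at a limma adjusted p of 0.0537. Of its 8 regions 6 were open in at least 1 infant library and in no adult library. The region at the gene's low end, chr18:61044762-61045539, was covered for 728, 476 and 659 bp in the infant libraries and had no adult peak. The only region shared by ages, chr18:61068335-61068704 inside the gene, was open in all infant libraries, in young adult replicates 1 and 3 and in mature adult replicate 2.

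Notch3, the Notch receptor of mural cells, lies on chr17:32120820-32166896 on the minus strand. Infant libraries had 8, 9 and 8 peaks there, young adult libraries 3, 4 and 0, and each mature adult library 2. All infant libraries were above all adult ones, and the young adult libraries differed widely among themselves. Its peak number did not pass limma's threshold at either age after scaling, at -1.80 (SE 0.772, adjusted p = 0.115) in young adult and -1.34 (adjusted p = 0.201) in mature adult libraries. Without young adult replicate 3, which had no Notch3 peak, both passed (limma adjusted p = 0.00403 and 0.000385). Covered length was 3933, 3435 and 3284 bp in infant, 828, 1371 and 0 bp in young adult and 307, 421 and 300 bp in mature adult libraries. It differed by -1.95 and -2.19 on the log2 scale (limma adjusted p = 0.0287 and 0.0126), the former lost without any 1 of the infant libraries or among the widest peaks. With young adult replicate 3 and mature adult replicate 1 both left out, it also differed between the adult ages, by -1.08 in mature against young adult libraries (limma adjusted p = 0.0275). Only the region over the gene's start, chr17:32165860-32167104, was open in 3 of 3 infant and 0 of 6 adult libraries. A region inside the gene at chr17:32143018-32143742 was open in all libraries except young adult replicate 3.

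Pdgfra, the PDGF-A receptor that marks lung fibroblasts, lies on chr5:75151322-75198206 and had the most peaks of the 10. They numbered 17, 16 and 14 in infant, 10, 9 and 10 in young adult and 10, 10 and 9 in mature adult libraries. The infant libraries were the highest, and the 2 adult ages had the same mean of 9.67 ± 0.577 (SD, n = 3) against 15.7 ± 1.53. On plain numbers both differences were -0.67 (SE 0.0832, limma adjusted p = 0.00275 in young adult and 0.00199 in mature adult libraries). After scaling they were -0.26 (limma adjusted p = 0.0499) and -0.14 (adjusted p = 0.218). The scaled call in young adult libraries was lost in most alternatives, and with young adult replicate 3 and mature adult replicate 1 both left out it was at a limma adjusted p of 0.0570. It turned to 0.33 with peaks in gene bodies only, to 0.16 with peaks of at least 300 bp and to 0.05 among the widest peaks. In mature adult libraries the peak number was called higher with peaks of at least 300 bp, at 0.34 (limma adjusted p = 0.0239).

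Most Pdgfra regions lay beyond the gene. Of its 20 regions 6 were open in every library, among them a region of 1664 bp inside the gene at chr5:75155714-75157378, which every library covered for at least 1410 bp. Another 5 were open in all infant and no adult libraries, and these lay between 22930 and 95160 bp beyond the gene's high end. They were narrow, at most 414 bp in any infant library. They were given to Pdgfra by distance only, the next gene on that side, Kit, being 376781 bp away.

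**Figure D3:**
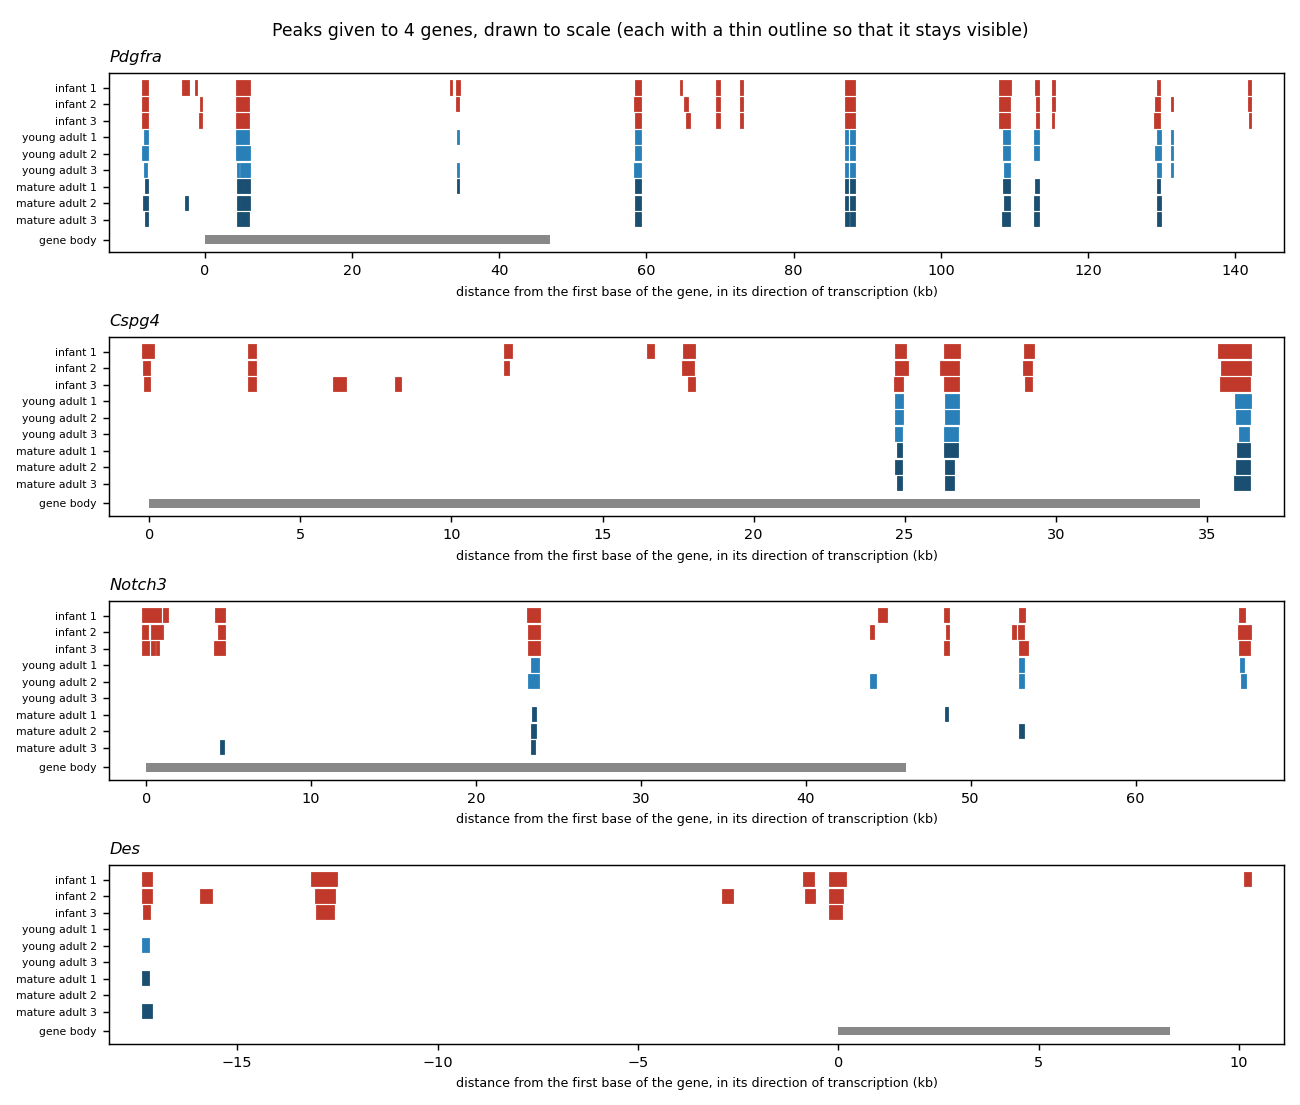
Peaks of each library at Pdgfra, Cspg4, Notch3 and Des (x axis, distance in kb from the first base of the gene in its direction of transcription; rows, libraries; grey bar, gene body), drawn to scale. Peaks at the first base of Cspg4, Notch3 and Des are seen in every infant but no adult library, while 6 of the 20 Pdgfra regions have a peak in every library.

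Cspg4 encodes the NG2 proteoglycan of the pericyte surface. On chr9:56865104-56899870, it had 9, 8 and 9 peaks in infant libraries and 3 in each of the 6 adult libraries. There was no overlap and no spread among the adult libraries. The difference was -0.998 (SE 0.0658) on the log2 scale in young adult and -0.89 in mature adult libraries after scaling (limma adjusted p = 0.000136 and 0.000132), and -1.39 at both ages on plain numbers. Covered length was 3615, 3158 and 3041 bp in infant, 1132, 1076 and 944 bp in young adult and 963, 936 and 916 bp in mature adult libraries. It differed by -0.99 and -1.02 after scaling (limma adjusted p = 0.000169 and 6.92e-05), and these calls were kept under every alternative. The peak number no longer passed the test among the widest peaks (limma adjusted p = 0.475 and 0.148), nor in young adult libraries with peaks of at least 300 bp (-0.75, adjusted p = 0.0918). Its 3 adult peaks were the same 3 regions in all 9 libraries, at chr9:56889793-56890225 and chr9:56891294-56891928 inside the gene and chr9:56900500-56901567 just beyond its high end. Of the other 8 regions, none of which had an adult peak, 4 were open in all 3 infant libraries: the one at the gene's start, and 3 inside the gene at chr9:56868401-56868652, chr9:56882778-56883178 and chr9:56894042-56894378.

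Rgs5, an inhibitor of G protein signalling that marks pericytes, lies on chr1:169655501-169695813. It had 6, 5 and 4 peaks in infant, 2 in each young adult and 4, 3 and 2 in mature adult libraries. Young adult libraries lay below all infant ones, and mature adult libraries overlapped with them. Its peak number was lower in young adult libraries (-0.75, SE 0.228, limma adjusted p = 0.0379), a call lost without infant replicate 1 or 2, any 1 young adult replicate or mature adult replicate 2, and turned to 0.22 with peaks of at least 300 bp. It was also lost with rows as deposited (limma adjusted p = 0.249), with gene bodies only (0.244) and among the widest peaks (0.835). In mature adult libraries the scaled peak number did not pass (limma adjusted p = 0.536). With peaks of at least 300 bp it was called higher there, at 0.49 (limma adjusted p = 0.0250). Covered length after scaling did not differ by the test (limma adjusted p = 0.864 and 0.586). On plain lengths it was lower, at -0.47 and -0.45 on the log2 scale (limma adjusted p = 0.0487 and 0.0434), as were 40.1% and 56.3% of all genes. The gene kept 2 regions open in every library. The one at its start covered 275 to 1021 bp, and the one inside it, chr1:169679723-169681189, covered 908 to 1345 bp. The peaks that only infant libraries had were each found in 1 or 2 of them.

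The cytoskeletal and contractile genes did not move as a group. Des, which encodes the muscle intermediate filament desmin, lies on chr1:75360292-75368579. It had 5, 6 and 3 peaks in infant, 0, 1 and 0 in young adult and 1, 0 and 1 in mature adult libraries. The 3 adult peaks all fell in 1 region 17238 bp before the gene, chr1:75342933-75343176, and no adult library had a peak nearer. Covered length was 1657, 1780 and 866 bp in infant and at most 212 bp in adult libraries. It differed by -2.17 (SE 0.354) and -1.80 on the log2 scale after scaling (limma adjusted p = 0.00292 and 0.00332). Des too reached the minimum only through its infant libraries, and these p-values are a description. The lower peak number (limma adjusted p = 0.0177 and 0.0463) was lost in young adult libraries without infant replicate 1 or 2 or young adult replicate 1 or 3, and in mature adult libraries without any 1 library except young adult replicate 2. With young adult replicate 3 and mature adult replicate 1 both left out, both calls were lost (limma adjusted p = 0.0652 and 0.0597). Infant-only regions in all 3 infant libraries stood at the start of the gene and at chr1:75347169-75347777.

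Acta2, smooth muscle alpha actin, lies on chr19:34240336-34255585 on the minus strand. It had 5, 5 and 7 peaks in infant, 4, 5 and 4 in young adult and 4 in each mature adult library. The groups overlapped and the peak number did not differ by the test after scaling, at 0.04 and 0.06 (limma adjusted p = 0.863 and 0.778), or without it (limma adjusted p = 0.144 and 0.0571). Covered length after scaling did not differ by the test, at -0.0012 and -0.035 on the log2 scale (limma adjusted p = 0.993 and 0.802). On plain lengths it was lower, at -0.45 and -0.60 (limma adjusted p = 0.0127 and 0.00235), as were 40.1% and 56.3% of all genes. The position of the peaks differed between ages. The region over the gene's start, chr19:34254224-34255805, covered 503, 1364 and 1032 bp in infant libraries, 256 bp in young adult replicate 2 and nothing in the other 5 adult libraries. The peak of young adult replicate 2, chr19:34254471-34254727, lay inside the gene and did not reach the start. A region 8006 bp before the gene, chr19:34263399-34263783, was open in all 6 adult and no infant libraries, as 0.686% of all regions were. Another 3 regions were open in every library.

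Myh11, the smooth muscle myosin heavy chain, lies on chr16:14194527-14292188. It had 7 peaks in each infant library, 7, 7 and 8 in young adult and 8 in each mature adult library. These numbers hardly varied, while the lists got shorter, and after scaling they were higher by 0.45 and 0.69 on the log2 scale (limma adjusted p = 0.00186 and 0.000143). On plain numbers only mature adult libraries passed, at 0.18 (SE 0.0486, limma adjusted p = 0.0318). The scaled call in mature adult libraries was lost with peaks of at least 300 bp (0.38, limma adjusted p = 0.104). Both scaled calls were lost among the widest peaks (limma adjusted p = 0.194 and 0.0609). Srf, the serum response factor gene, had 2 peaks in every library and was also called higher after scaling in mature adult libraries (limma adjusted p = 0.000375). Covered length of Myh11 was 3862 to 4613 bp in infant, 3961 to 4797 bp in young adult and 3729 to 4700 bp in mature adult libraries. It differed by 0.05 and 0.02 on plain lengths (limma adjusted p = 0.725 and 0.909). Of its 8 regions 6 were open in all libraries, and 1 beyond its high end, chr16:14294188-14294585, was open in all 6 adult and no infant libraries.

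Tagln, the actin-binding protein transgelin, lies on chr9:45929628-45936058, where it overlaps Pcsk7 at its low end and lies 1799 bp from Sidt2. It had 2, 1 and 1 peaks in infant, 1, 1 and 0 in young adult and 0, 1 and 1 in mature adult libraries. One of them, a peak of 150 bp in infant replicate 1, lay inside the gene at chr9:45932124-45932274, in a merged region whose centre is in Pcsk7. The others were in a single region, chr9:45935796-45937447, which every library had open but in different stretches. In infant libraries peaks of 1449 to 1628 bp spanned the gene's high end, and covered 500, 501 and 486 of the bases within 250 bp of it. In adult libraries only young adult replicate 1 had a peak there, covering 225 bp, and the other adult peaks in the region began farther on, toward Sidt2. Adult peaks with a centre nearer Sidt2 were counted for that gene. They measured 944, 635 and 447 bp in young adult replicates 1, 2 and 3 and 206 bp in mature adult replicate 1. Which gene such a peak belongs to cannot be told from its position.

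Tcf21, a transcription factor of lung fibroblasts and their precursors, lies on chr10:22817263-22820143 on the minus strand. It had 9, 7 and 10 peaks in infant, 4, 4 and 6 in young adult and 4, 5 and 4 in mature adult libraries. The infant libraries were above all adult ones. After scaling the differences of -0.44 (SE 0.189) and -0.41 did not pass the test (limma adjusted p = 0.113 and 0.119), and on plain numbers they were -0.84 and -0.92 and passed (limma adjusted p = 0.0298 and 0.0149). Without young adult replicate 3 the scaled difference in young adult libraries passed as well, at -0.62 (limma adjusted p = 0.0224). The covered length of Tcf21 with all libraries did not pass after scaling (limma adjusted p = 0.243 and 0.277) and was lower on plain lengths (0.0100 and 0.00424). Without young adult replicate 3 it was called lower after scaling in young adult libraries, at -0.50 (limma adjusted p = 0.0369). This call was kept with mature adult replicate 1 also left out (limma adjusted p = 0.0440). Of its 11 regions 3 were open in every library: chr10:22816156-22816905 beside the gene, and chr10:22887216-22887908 and chr10:22893451-22894169 at 67419 and 73667 bp from it.

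Peaks at the start of several of these genes were seen only in infant libraries. The 250 bases before the start of transcription were taken for the 7 members listed in a RefSeq promoter table (build GRCm38.p6, the build of mm10). At 4 of the 7, Acta2, Des, Cspg4 and Notch3, this window met a peak in every infant library and in none of the 6 adult libraries. The same held for 353 of 17491 genes, or 2.02%. The Acta2 window was covered whole, for 250 bp, in every infant library. The Des window was covered for 208, 219 and 198 bp, that of Notch3 for 195, 211 and 214 bp, and that of Cspg4 for 216, 172 and 136 bp. In adult libraries all 4 were at 0. The Tcf21 window was covered for 54 bp in infant replicate 1, 31 bp in infant replicate 3 and 0 elsewhere, the Pdgfra window in no library (as in 38.6% of genes), and that of Rgs5 in all 9 (51.0% of genes), for 229 to 250 bp.

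The 4 windows open only in infant libraries are shown with that of Rgs5, which had a peak in all 9. Each is read 5′ to 3′ in the direction of transcription and ends at the base before the start; capitals mark matches to the motifs named after them. The Acta2 window is chr19:34255374-34255623 (minus strand), the Des window chr1:75360042-75360291 (plus strand), the Cspg4 window chr9:56864854-56865103 (plus strand), the Notch3 window chr17:32166891-32167140 (minus strand) and the Rgs5 window chr1:169655251-169655500 (plus strand).
Acta2: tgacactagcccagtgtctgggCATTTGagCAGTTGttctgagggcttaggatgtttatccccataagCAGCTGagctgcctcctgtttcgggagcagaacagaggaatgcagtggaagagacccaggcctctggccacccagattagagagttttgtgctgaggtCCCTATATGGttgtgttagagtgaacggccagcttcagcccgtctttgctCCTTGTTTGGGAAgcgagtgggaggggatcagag
Des: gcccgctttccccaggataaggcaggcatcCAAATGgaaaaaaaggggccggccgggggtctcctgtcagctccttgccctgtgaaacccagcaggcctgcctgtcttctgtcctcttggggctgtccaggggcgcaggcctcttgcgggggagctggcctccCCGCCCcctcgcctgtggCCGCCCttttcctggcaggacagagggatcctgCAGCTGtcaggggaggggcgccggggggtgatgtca
Cspg4: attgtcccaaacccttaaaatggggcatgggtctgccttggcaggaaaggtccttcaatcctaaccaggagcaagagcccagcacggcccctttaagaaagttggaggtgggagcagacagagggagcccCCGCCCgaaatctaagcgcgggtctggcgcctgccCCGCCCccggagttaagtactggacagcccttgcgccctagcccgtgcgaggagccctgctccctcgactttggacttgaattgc
Notch3: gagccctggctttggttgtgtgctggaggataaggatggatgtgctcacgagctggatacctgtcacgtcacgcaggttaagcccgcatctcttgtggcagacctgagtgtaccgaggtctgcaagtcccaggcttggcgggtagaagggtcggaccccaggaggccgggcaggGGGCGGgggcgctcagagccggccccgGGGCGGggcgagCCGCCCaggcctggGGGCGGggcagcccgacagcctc
Rgs5: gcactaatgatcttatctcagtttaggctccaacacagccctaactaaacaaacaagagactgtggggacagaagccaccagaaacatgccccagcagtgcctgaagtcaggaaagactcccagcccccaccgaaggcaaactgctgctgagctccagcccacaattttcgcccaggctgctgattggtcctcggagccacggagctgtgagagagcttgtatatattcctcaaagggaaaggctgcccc

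Matches to 7 motifs were searched for on both strands, with positions counted back from the start, the last base before it being -1. They were the E-box CANNTG, the RBPJ core TGGGAA bound by the Notch effector, the TATA box TATAAA, the GC box GGGCGG, the CArG box, the MEF2 box, and a CArG box with 1 G or C in its A and T core, which was added after the windows had been read. The Acta2 window had E-boxes at -228, -220 and -182. It had CArG boxes with 1 G or C in the core at -84 (CCCTATATGG) and -34 (CCTTGTTTGG), the latter overlapping an RBPJ core at -27. This CArG pattern is found in 8.26% of the 17491 windows, the E-box in 66.3% and the RBPJ core in 23.5%. The Des window had E-boxes at -220 and -36 and GC boxes at -87 and -69. Cspg4 had GC boxes at -120 and -85, and Notch3 had 4, at -76, -49, -37 and -23. GC boxes are found in 45.8% of windows. The Rgs5 window had none of the 7 motifs. No window of the 7 members held the TATA box (13.7% of all windows), the CArG box in its strict form (1.60%) or the MEF2 box (0.555%). These are matches of letters and were not tested for binding.

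The ends of the gene bodies were examined for all 10 genes. Within 250 bp of either end of a gene, 5 of the 20 member windows were covered in all infant and no adult libraries, against 1.41% of 43766 windows of all genes. They were the low ends of Pdgfrb, Cspg4 and Des and the high ends of Notch3 and Acta2. The Pdgfrb window was covered for 501, 408 and 501 bp in infant libraries. The low end of Rgs5 and that of Myh11 were covered in all 9 libraries, as were 24.6% of all windows.

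**Figure D4:**
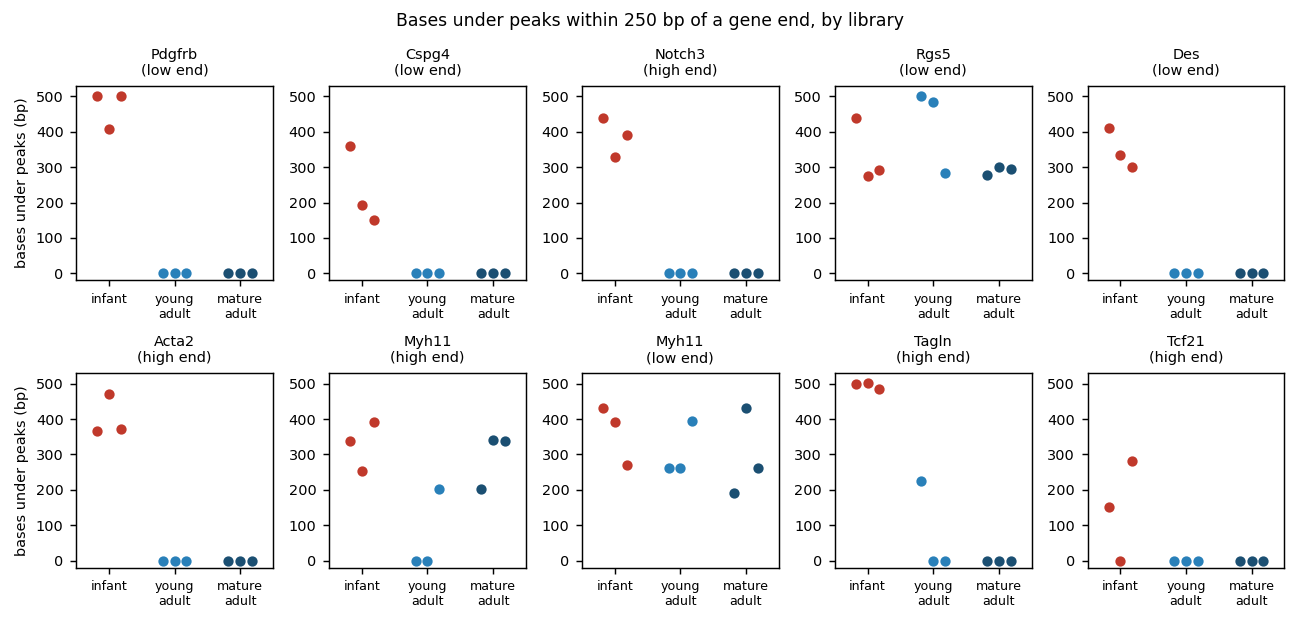
Bases under peaks within 250 bp of a gene end (y axis, bp) in each library (points) at the 3 ages; low and high end refer to chromosome position, and windows empty in every library are left out. All adult libraries lie at 0 at Pdgfrb, Cspg4, Notch3, Des and Acta2, while adult libraries reach 431 bp at the low end of Myh11 and 501 bp at Rgs5.

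Over all regions of the 10 genes, 14 of 90 (15.6%) were open in 3 of 3 infant and 0 of 6 adult libraries, against 9.70% of all regions. These were 5 at Pdgfra, 4 at Cspg4, 2 at Des and 1 each at Pdgfrb, Notch3 and Tcf21. Counting regions open in 1 or more infant libraries and in no adult library, there were 43 of 90 (47.8%), against 28.1% of all regions. Another 2 regions (2.22%) were open in all adult and no infant libraries, against 0.686% of all regions, and 24 (26.7%) were open in all 9, against 32.4% of all regions. The 14 infant-only regions were more often near a gene end than such regions in general, 4 of 14 against 7.00% within 1 kb, and 5 of 14 lay inside the gene, against 50.5%. No test of these shares was made. Their infant width had a median of 276 bp, against 341 bp for all infant-only regions. The count became 7 when only gene ends within 10 kb were used, 8 with peaks of at least 300 bp, and 7 among the widest peaks.

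**Figure D5:**
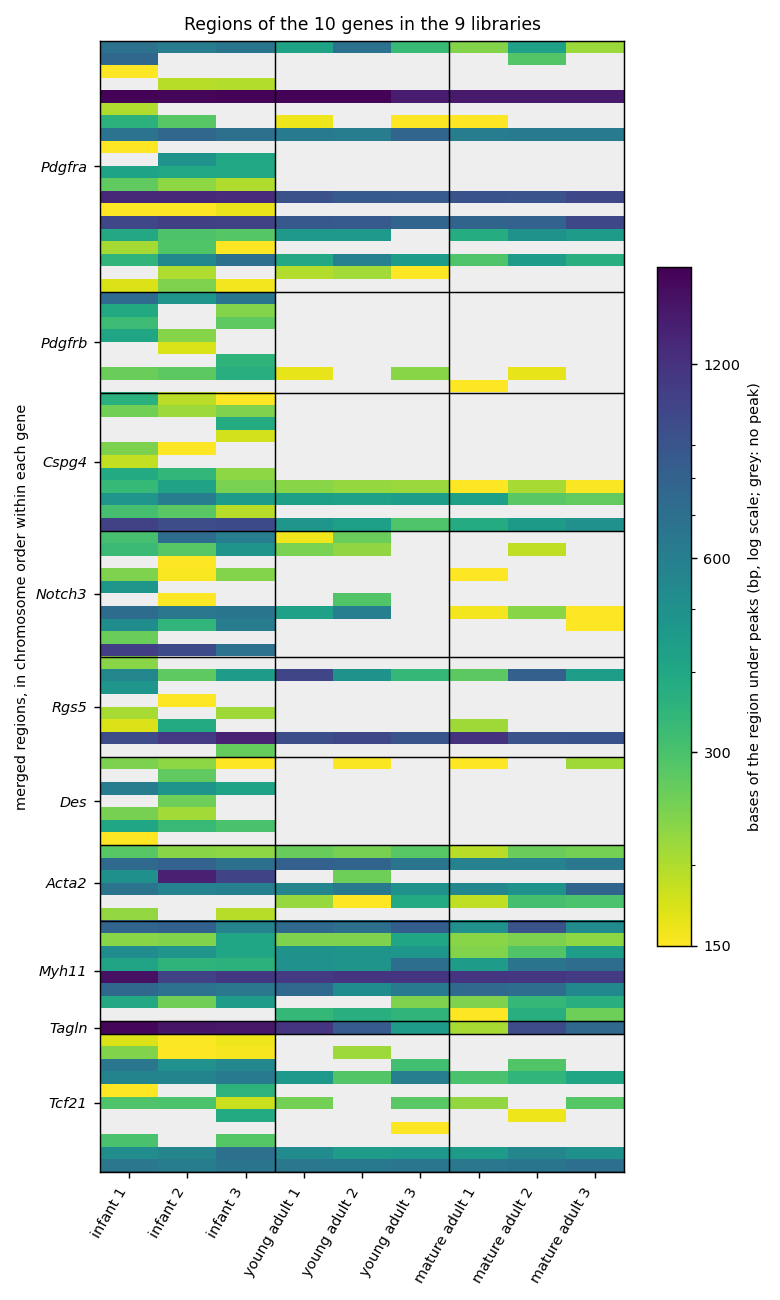
Bases under peaks (colour, bp, log scale; grey, no peak) in each of the 90 merged regions of the 10 genes (rows, in chromosome order within each gene) in the 9 libraries (columns). Rows at Cspg4, Pdgfrb and Des are mostly grey in the 6 adult columns, while 6 of 8 rows at Myh11 are filled in every column.

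The share of peaks inside the genes did not separate the ages. Between 40.5% and 48.7% of a library's peaks at the 10 genes had their centre inside the gene, with ages overlapping, against 63.8% to 65.5% of all assigned peaks. Peaks within 1 kb of a gene end made up 17.8%, 20.6% and 25.0% of the members' peaks in infant libraries and 13.5% to 18.9% in adult libraries, so the ages overlapped. Over all genes such peaks made up 16.4% to 17.7% in infant and 20.1% to 22.1% in adult libraries, and no test of the difference was made.

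Mean peak width per gene did not pass limma's threshold for any of the 6 members that had a peak in every library, in either direction (over all genes 2.39% were lower and 1.41% higher in young adult, 6.37% and 2.54% in mature adult libraries). Nor did any differ between the adult ages (0.0757% and 0.106% of all genes). At an unadjusted p under 0.05 it differed at 1 member in each comparison with infant libraries, and at 2848 and 3675 of the 13209 genes tested. Within the 24 regions open in all 9 libraries, 2 were narrower in young adult (5.80% of all such regions) and 4 in mature adult libraries (16.4%), a share like that of all regions, and none was wider (1.12% and 1.92%). Between the adult ages none of the 24 differed (0.0875% narrower and 0.00972% wider over all regions). When each library was centred on its mean log2 width, 2 were narrower (2.19%) and none wider (2.75%) in young adult libraries, 3 narrower (6.86%) and 2 wider (12.2%) in mature adult libraries, and none differed between the adult ages (0.102% and 0.0243%). Width here is the number of bases of a region under peaks, summed where a library had more than 1 peak in it. This test of single regions was added after their widths had been seen. The regions narrowed before centring were at Pdgfra and Cspg4. The region beyond the high end of Cspg4 measured 1067, 955 and 982 bp in infant, 473, 430 and 293 bp in young adult and 382, 451 and 496 bp in mature adult libraries (limma adjusted p = 0.00751 and 0.00658). In the Pdgfra region at chr5:75238414-75239715, peaks covered 1281 ± 13.9, 878 ± 44.6 and 948 ± 52.9 bp (SD, n = 3, limma adjusted p = 0.00291 and 0.00344). Each infant library had 1 peak there and each adult library 2 with a gap between them (309 and 620 bp in young adult replicate 1). The 2 adult peaks together reached about as far as the infant peak, so fewer bases were covered over much the same stretch. After centring, the change of this region in mature adult libraries was -0.17 and not called (limma adjusted p = 0.120), while that in young adult libraries was still called (0.0264). Narrowed in mature adult libraries only were chr9:56889793-56890225 at Cspg4 and chr5:75142869-75143590 at Pdgfra (limma adjusted p = 0.0202 and 0.0359). With young adult replicate 3 and mature adult replicate 1 both left out, neither was called (limma adjusted p = 0.0701 and 0.0768). Called narrower instead in mature adult libraries were chr9:56891294-56891928 at Cspg4, chr5:75155714-75157378 at Pdgfra and the Tagln region (limma adjusted p = 0.0171, 0.00694 and 0.0279), and chr16:14253364-14254092 at Myh11 was wider (limma adjusted p = 0.00693). The Pdgfra region at chr5:75155714-75157378 was then also narrower in mature than in young adult libraries (limma adjusted p = 0.0382). Each mature adult library had 2 peaks in it, where young adult replicates 1 and 2 each had 1 that spanned it.

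A wider list of 35 genes of mural cells and fibroblasts was counted in the same comparisons. Its genes together had 243 to 247 peaks per infant library, 143 to 154 per young adult and 120 to 130 per mature adult library, with no overlap between infant and adult libraries. After scaling, 10 of its 33 tested genes were lower (9.35% of all genes) and 3 higher (25.7%) in young adult libraries, and 14 lower (13.8%) and 3 higher (30.1%) in mature adult libraries. On plain numbers 15 and 21 were lower (17.5% and 29.3% of all genes) and 0 higher (1.13% and 1.43%). Genes that passed the minimum only through their infant peaks are among those tested, so these counts too are a description. The 3 higher ones were Gli1, Fgf10 and Mylk at both ages, named after their values were seen, and Mylk was lower on plain numbers in mature adult libraries. The largest falls in young adult libraries were those of Postn (periostin, 5, 3 and 6 peaks to 0 in all 3), Tbx18 (a pericyte transcription factor, 3, 3 and 4 to 0 in all 3), Abcc9 (a pericyte potassium channel subunit, 3 in each to 0 in all 3), Tbx5 (13, 13 and 11 to 1, 1 and 2) and Col1a1 (10, 9 and 8 to 1, 2 and 2). Their limma adjusted p-values were 0.00186, 0.00219, 7.96e-10, 0.000396 and 0.00186. Postn, Tbx18, Abcc9 and Tbx5 passed the minimum mean of 1 peak only through their infant libraries, so their p-values describe genes that had to be higher there. Abcc9 had equal numbers within each age, which leaves little spread and gives a very small p. In mature adult libraries the largest falls were at Tbx5, which had no peak left in any of the 3, Abcc9, Postn, Tbx18 and Col1a2 (a collagen gene, 13, 14 and 14 to 2, 2 and 3; limma adjusted p = 0.000132). Lum had no peak in any library, and Dcn and Abcc9 had none in an adult library.

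Of 20 signalling partners of these cells, 4 were lower and 6 higher in young adult libraries after scaling (9.35% and 25.7% of all genes), and 7 lower and 5 higher in mature adult libraries (13.8% and 30.1%). On plain numbers 8 and 12 were lower (17.5% and 29.3% of all genes) and none was higher (1.13% and 1.43%). Pdgfb, the endothelial ligand of the Pdgfrb receptor, had 18, 19 and 18 peaks in infant, 16, 15 and 17 in young adult and 15, 17 and 15 in mature adult libraries. Dll4, an endothelial Notch ligand, had 6 or 7 peaks in every library. Myocd, which encodes myocardin, had 5, 4 and 7 infant peaks, 0, 0 and 1 young adult peaks and none in any mature adult library (limma adjusted p = 0.00222 and 0.000685). Heyl, a Notch target of mural cells, had 8, 7 and 5 peaks in infant and 1, 1 and 0 in mature adult libraries (limma adjusted p = 0.0289). Myocd and Heyl passed the minimum only through their infant peaks, so these p-values are a description. Rbpj went from 8, 9 and 9 peaks to 4, 4 and 3 and to 2, 4 and 4 (limma adjusted p = 0.0373 and 0.0239), and Hes1 from 31, 26 and 31 to 16, 18 and 14 in young adult libraries (limma adjusted p = 0.0155). Pdgfa (12, 12 and 13 to 4, 4 and 7) and Mrtfa (14, 16 and 16 to 8, 6 and 7) were lower in mature adult libraries (limma adjusted p = 0.0170 and 0.0355). The 5 called higher in mature adult libraries after scaling, Pdgfb, Pdgfd, Dll4, Srf and Mrtfb, were named after their values were seen, and Pdgfb and Mrtfb were lower on plain numbers.

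Markers of other cells were counted in the same way. The 10 endothelial markers together had 231 to 250 peaks in infant, 203 to 228 in young adult and 186 to 225 in mature adult libraries, and each had peaks. None of the 10 was lower after scaling at either adult age, where 9.35% and 13.8% of all genes were. After scaling 4 were higher in young adult and 7 in mature adult libraries (25.7% and 30.1% of all genes). On plain numbers 2 and 3 of them were lower (17.5% and 29.3% of all genes) and 0 higher. The 8 epithelial markers had 34 to 44, 18 to 26 and 18 to 20 peaks. Sftpc had none in any library and Ager none in an adult library. After scaling 0 of the 5 tested were lower in young adult and 1, Sftpb, in mature adult libraries (9.35% and 13.8% of all genes). On plain numbers 2 of the 5 were lower in young adult libraries, Cdh1 and Hopx, and 3 in mature adult libraries, Epcam, Sftpb and Hopx (17.5% and 29.3% of all genes). The 8 leukocyte markers had 8 to 9, 5 to 9 and 5 to 6 peaks, with Cd68, Itgam and Lyz2 at 0 in every library and Cd3e at 0 in adult libraries. The 8 pericyte markers, of which Pdgfrb, Notch3, Cspg4 and Rgs5 are members, had 39 to 44, 12 to 16 and 10 to 13 peaks. The 8 smooth muscle markers, of which Acta2, Myh11, Tagln and Des are members, had 32 to 33, 16 to 19 and 16 to 17. The 8 fibroblast markers, of which Pdgfra and Tcf21 are members, had 58 to 60, 28 to 36 and 27 to 28. The other pericyte, smooth muscle and fibroblast markers were all in the lists counted above, so these are the same peaks grouped again. The part of other cells in the sort in the lower adult peak numbers was not tested.

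The genes whose scaled peak numbers went most like those of Pdgfrb over the 9 libraries were Arhgap42, Fermt1 and Tmem182 (Pearson's r = 0.97, 0.97 and 0.96). Arhgap42 had 21, 21 and 23 peaks in infant and 5 to 12 in adult libraries. The genes most like Des were Adgra1, Fads3 and Xcl1 (r = 0.98, 0.97 and 0.96), with 3, 3 and 2 infant peaks and at most 1 adult peak at Adgra1. These values describe a shared difference between ages in the same 9 lists, and were the highest of 14451 genes.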

How the data were processed

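Peaks were taken from 1 deposited list per library, 3 libraries per age. Per the file headers, the authors deposited the chromosome, start and end of each peak, in base pairs, and nothing on its strength. The submitters' processing notes name cutadapt, Bowtie2 and Picard (no versions) and mm10; for the peak caller and its threshold, the sources used here give none. Repeated rows (31.0% to 38.9% of intervals were repeated) were counted once. Starts may count from 0 or 1, so positions may be off by 1 bp. Depth is unknown, so no interval or detection limit is given, and where no peak was called, chromatin need not be closed.

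Gene positions came from a RefSeq table (GRCm38.p6, the build of mm10; 21883 protein-coding genes), upstream windows from a RefSeq promoter table, in which 7 of the 10 genes were found. Scaling divided by the library's total and multiplied by the mean total. Numbers were tested as log2(number + 0.5), covered lengths as log2(bp + 250) and widths as log2(bp), with limma 3.58.1 in R 4.3.3 (mean-variance trend, 9 libraries in 1 fit, mean peak number of 1 or more, Benjamini-Hochberg over all genes tested, threshold 0.05). Such changes understate those of genes with few peaks. Regions are peaks merged where they shared 1 bp or more. The test was also run on simulated peak numbers, with changes set only at genes with a mean of at least 3 peaks. The simulated spread was not taken from these libraries, so that run does not bear on the p-values given here. All members were named in every comparison; from the wider lists, the 5 largest falls and rises against infant libraries that passed on both scales, and for the 2 members with the largest mature adult change, the 3 most correlated genes. The members and lists were chosen with earlier results of these data known.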

Additional observations from a re-analysis of the deposited data

How the results depend on the processing

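Depth limits every count here, since the lists hold positions only. Counts are of members that passed limma's threshold, young adult and then mature adult against infant libraries unless said otherwise. Apart from the unscaled fits with all libraries, the share of all genes that passed under the same alternative is not given. The same holds for infant-only regions, so these counts show how calls moved and nothing about the members against other genes. Not every member stayed in the tests of number and covered length. Pdgfrb and Des fell under the minimum with a mean of at least 3 peaks and with peaks of at least 300 bp. Des also fell under it with a 10 kb limit, with gene bodies only and among the widest peaks. A smaller count there need not be a lost call. Lower in peak number (5 and 3): 2 and 1 with a mean of at least 3 peaks, 0 and 0 among the widest peaks, and in young adult libraries 3 with a 10 kb limit, 2 with gene bodies only and 1 with peaks of at least 300 bp; in mature adult libraries 5 without scaling, also when young adult replicate 3 and mature adult replicate 1 were left out together. With the replicate number as a block they were 3 and 1. The mean of each age was taken off every gene's scaled log2 peak number, and what was left was correlated between libraries of different ages. Same-numbered libraries then correlated between -0.167 and 0.167 over 9 pairs, and 5 of 9 libraries correlated best with their own number. The highest value, 0.285, was that of young adult replicate 3 with mature adult replicate 1. These values do not settle whether the numbers pair the libraries, and the labels do not say. Higher in peak number (1 and 1): 0 and 0 among the widest peaks, and 0 in young adult libraries without scaling (all libraries, or without those 2). With peaks of at least 300 bp 2 were higher in mature adult libraries, Pdgfra and Rgs5, and Myh11 was not. Mature adult against young adult, 1 was higher without scaling and those 2 libraries.

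Lower in covered length (4 and 4): 8 and 8 without scaling, 8 and 9 without scaling and those 2 libraries, 2 and 2 with a mean of at least 3 peaks or peaks of at least 300 bp, and 2 in young adult libraries among the widest peaks. Higher (1 and 1): 0 and 0 without scaling, with or without those 2 libraries, and with rows as deposited. Between adult ages 1 was lower, Notch3, and 1 higher, Tagln, without those 2 libraries, with or without scaling. Tagln had no peak in either of those 2 libraries, and reached the minimum once they were left out. Its young adult lengths leave out peaks of 944 and 635 bp in replicates 1 and 2, which were counted for Sidt2. Lower in mean width (0 and 0): 1 and 2 with no filter, 4 and 4 among the widest peaks, 1 and 1 without those 2 libraries, and in mature adult libraries 1 with rows as deposited and 1 with peaks of at least 300 bp. Infant-only regions (14) numbered 7 with a 10 kb limit, 8 with peaks of at least 300 bp and 7 among the widest peaks. Of the 24 shared regions, 2 were wider in mature adult libraries after centring on the mean log2 width (12.2% of all such regions). Without those 2 libraries 1 was wider (1.99%), and 1 was also narrower against young adult libraries (1.00%).

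With 1 library left out, lower peak numbers ran from 1 to 5 and from 1 to 3, lower covered lengths from 3 to 5 in young adult libraries, covered length between adult ages from 0 to 1 in each direction, lower mean widths in mature adult libraries from 0 to 1, and infant-only regions from 14 to 20.

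Some directions turned. Pdgfra's peak number in young adult libraries became 0.33 with gene bodies only, 0.16 with peaks of at least 300 bp and 0.053 among the widest peaks, and in mature adult libraries 0.34 with peaks of at least 300 bp. With those peaks Rgs5's became 0.22 and 0.49. The mature adult changes of Pdgfra and Rgs5 with those peaks passed as higher (limma adjusted p = 0.0239 and 0.0250). Rgs5's covered length in mature adult libraries became -0.45 without scaling and -0.49 without scaling and those 2 libraries, where Myh11's in young adult libraries became -0.024. Among the widest peaks, mean width became -0.44 at Pdgfra in young adult libraries and -0.36 and -0.35 at Tcf21. The causes were not tested.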
